A study of Homo sapiens with 15 samples.

Results

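Synaptic vesicles and dense-core granules are the carriers of regulated secretion, and 40 genes of these carriers and of the machinery that fuses them with the plasma membrane were examined in C4-2B cells. The 40 genes were chosen by name, and all of them were found among the 58302 genes counted in each library. C4-2B is an established human prostate adenocarcinoma cell line derived from LNCaP, labelled wild type, and it is the parental line of the neuroendocrine-like C4-2BER cells that the study obtained under continuous enzalutamide. The cells were grown in RPMI medium with fetal bovine serum and received neither a scrambled control nor an siRNA. RNA-seq libraries were labelled for 15 samples in 5 groups, and the values here are those of the 3 C4-2B libraries. The DKD and ER cells that received scr or siPax5 were not analysed here, so no difference between cell states was measured. C4-2B is 1 line in culture, and nothing in the labels says whether its libraries came from separate cultures, so the spread and the p-values below measure only the variation between these samples, which may be technical.

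In regulated secretion, a vesicle or granule is brought to the plasma membrane by Rab GTPases, is primed for release and fuses when calcium enters the cell. Fusion is driven by SNARE proteins, a VAMP on the vesicle that pairs with a syntaxin and a SNAP protein on the plasma membrane, while synaptotagmins sense calcium and complexins, Munc18 and Munc13 proteins control the assembly. Many of these proteins come as a form found in most secreting cells and a paralogue used mainly by neurons and endocrine cells. Dense-core granules carry granins and peptide hormones together with the proprotein convertases that process them, and chromogranin A and synaptophysin are the classic markers of neuroendocrine tumours. The study asks how adenocarcinoma cells acquire neuronal and secretory genes, and C4-2B represents the state before that change.

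The libraries held 44992971, 49569026 and 46232076 counts in genes. Levels are given as TPM, a unit of transcript abundance that divides a gene's count by its length and scales every library to the same total. The adenocarcinoma label was checked against marker genes. All 8 prostate luminal markers were between 197 and 1988 TPM, with KRT8 the lowest and KLK3 the highest, and their summed level was 4654 to 4689 TPM per library. None of 4 neuroendocrine regulators reached 1 TPM in all libraries, with POU3F2 at 0.259 TPM, INSM1 at 0.0163 TPM and NEUROD1 and FOXA2 at 0 counts. None of 3 basal markers reached 1 TPM, with KRT14 just below it at 0.865 TPM on average, KRT5 at 1 count in all and TP63 at 0 counts. Of 3 neuronal markers, MAP2 was at 4.92 TPM, NEFL at 1.04 TPM and RBFOX3 at 0.155 TPM. In bulk RNA, few cells with much of a transcript and many cells with little of it cannot be told apart.

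Of the 40 genes, 25 had at least 1 TPM in all 3 libraries, which is 62.5%. The same level was reached by 61.2% of the 19708 protein-coding genes and by 32.8% of all genes. At least 10 TPM was reached by 16 of the 40, or 40%, beside 43.4% of protein-coding genes. As a whole, therefore, the share of these genes that was expressed lay near the background of protein-coding genes. The 40 genes together took 0.125% ± 0.000509 of the counts and 841 ± 9.39 TPM (SD, n = 3). The 5 highest, RAB3D, SYT4, VAMP8, VAMP3 and RAB3A, made up 57.6% ± 0.813 of that sum (SD, n = 3).

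The levels differed by class. The classes follow textbook roles and were chosen with earlier results of these data known. A higher level of widely expressed genes is therefore partly built into the classes, and the differences below only describe its size. Of 13 widely expressed exocytosis genes, 12 were at 1 TPM or more in all libraries, with a median of 24.0 ± 0.459 TPM (SD, n = 3). Of 17 neuron-restricted vesicle and release genes, 8 were at that level, with a median of 0.281 ± 0.0588 TPM. Of 10 genes for granule cargo and its processing, 5 were at that level, with a median of 0.858 ± 0.0897 TPM. On the log2(TPM + 1) scale the median of the widely expressed class exceeded that of the neuron-restricted class by 4.29 ± 0.06, with 4.24, 4.26 and 4.36 in the libraries. It exceeded the median of the granule class by 3.81 ± 0.07 (SD, n = 3), with 3.86, 3.73 and 3.85. These SDs are over libraries and do not cover the spread among genes of a class, which ran from 0.00157 to 111 TPM in the neuron-restricted class. No test was made because genes are not replicates. With list means in place of medians they were 2.66 and 2.95. The class is a matter of judgement for 8 genes (CPE, VAMP1, VAMP2, SYT7, SYT11, RAB3B, RAB27B and UNC13B), and without these the differences were 4.85 and 4.69.

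**Figure D1:**
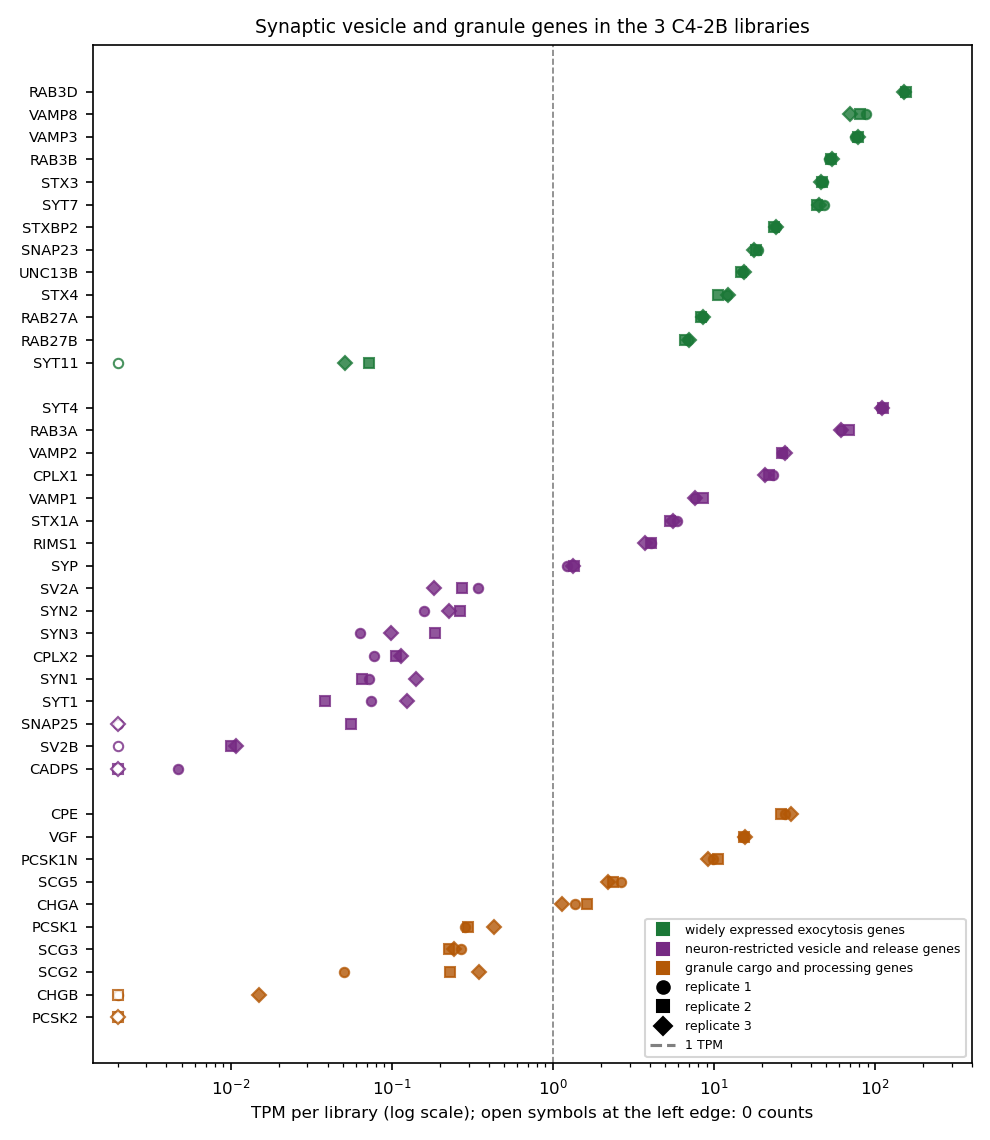
TPM on a log axis of each of the 40 genes in each of the 3 C4-2B libraries, grouped by class, with 1 symbol shape per replicate and open symbols at the left edge for 0 counts. Of the 13 widely expressed genes, 12 lie to the right of the dashed line at 1 TPM, while the neuron-restricted and granule genes spread from 111 TPM for SYT4 down to 0 counts for PCSK2.

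In the order of levels, no gene lay between SYP at 1.31 TPM and PCSK1 at 0.339 TPM, so the 25 genes above and the 15 below stood apart. The 15 lower genes had 377 counts in all. Of 39 neighbouring pairs in the order, 19 had ranges over the 3 libraries that did not overlap and 20 had ranges that did. Among the expressed genes, the neighbours with overlapping ranges were VAMP8 and VAMP3, STX3 and SYT7, CPE and VAMP2, VGF and UNC13B, RAB27A and VAMP1, and CHGA and SYP. Within each library VGF was above UNC13B, though only at 15.15 and 15.11 TPM in replicate 1. From PCSK1 downwards every neighbouring pair overlapped, so neighbouring levels among the 15 lower genes could not be told apart at this depth.

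Granule cargo was carried by a few genes. CPE, carboxypeptidase E, which trims processed peptides and sorts cargo in granules (ENSG00000109472, chromosome 4, 165361194 to 165498320, plus strand), was at 27.8, 26.1 and 30.1 TPM in replicates 1, 2 and 3, with a mean of 28.0 ± 2.03 (SD, n = 3). VGF, a granin and precursor of neuropeptides (ENSG00000128564, chromosome 7, 101162509 to 101165593, minus strand), was at 15.2, 15.3 and 15.5 TPM, with a mean of 15.3 ± 0.200. The lowest CPE library lay above the highest VGF library. PCSK1N, or proSAAS, a granin-like inhibitor of the convertase PC1 (ENSG00000102109, chromosome X, 48831094 to 48835633, minus strand), was at 9.92, 10.6 and 9.24 TPM, with a mean of 9.90 ± 0.658. CPE alone made up 48.4% ± 2.40 of the summed TPM of the 10 granule genes, and CPE, VGF, PCSK1N and SCG5 together 96.2% ± 0.377 (SD, n = 3).

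The classic granule markers were low. CHGA, the chromogranin A gene (ENSG00000100604, on the plus strand of chromosome 14 from 92923080 to 92935293), had 1.38, 1.62 and 1.13 TPM from 62, 80 and 52 counts. SCG5, or 7B2, the chaperone of the convertase PC2 (chromosome 15, 32641676 to 32697098), had 2.67, 2.37 and 2.19 TPM, with a mean of 2.41 ± 0.243 (SD, n = 3). The 3 SCG5 libraries all lay above the 3 CHGA libraries. CHGB, which encodes chromogranin B, the other large granin, had 0, 0 and 1 counts, and CHGA was 284 times higher per length, with an exact 95% counting interval of 50.3 to 11259. SCG2, secretogranin II, had 2, 10 and 14 counts, or 0.210 ± 0.150 TPM. SCG3, which binds chromogranin A at the granule membrane, had 13, 12 and 12 counts, or 0.248 TPM on average. Among the 7 granins, VGF took 52.0% ± 1.90 of the summed TPM, PCSK1N 33.6%, SCG5 8.18% and CHGA 4.66% (means, n = 3).

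Of the convertases of neuroendocrine granules, PCSK1 was detected at a low level and PCSK2 was at the counting limit. PCSK1, which encodes PC1/3, had 22, 25 and 34 counts, or 0.339 ± 0.0826 TPM (SD, n = 3). PCSK2, which encodes PC2, had 0 counts in every library, which is a limit of 0.00938 TPM at 3 counts over the 3 libraries and 0.0115 TPM at the exact 95% upper bound. With PCSK2 set to 3 counts PCSK1 was at least 36.0-fold higher, and the exact 95% lower bound of the ratio was 28.6. The convertases of the general secretory pathway were higher, with FURIN at 27.1 ± 0.882 TPM and PCSK7 at 9.07 ± 0.0381 TPM (SD, n = 3). FURIN took 51.6% of the summed TPM of 7 convertases and PCSK1 took 0.642%. Thus SCG5 and PCSK1N, whose proteins bind PC2 and PC1, were present at 2.41 and 9.90 TPM while the convertases themselves were at 0 counts and 0.339 TPM.

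Among the other 11 granule and processing genes, 7 were at 1 TPM or more in all libraries. CPD, a carboxypeptidase of the Golgi complex, was the highest of them at 53.0 ± 0.698 TPM (SD, n = 3). PAM, which amidates peptide hormones in granules, was at 2.33 ± 0.0435 TPM. PTPRN and PTPRN2, transmembrane proteins of dense-core granules, were at 0.609 and 4.93 TPM on average.

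Neuron-restricted vesicle proteins were mostly low. SYP, which encodes synaptophysin, an abundant membrane protein of synaptic vesicles (ENSG00000102003, chromosome X, 49187804 to 49200259, minus strand), was at 1.22, 1.36 and 1.34 TPM, with a mean of 1.31 ± 0.0773 (SD, n = 3). The synapsins, which tether vesicles to actin, were all under 1 TPM, with SYN2 at 0.216 TPM, SYN3 at 0.116 TPM and SYN1 at 0.0932 TPM on average. The 3 synapsins summed to 0.426 ± 0.117 TPM. The range of SYN3 over the libraries overlapped those of SYN2 and SYN1. The ranges of SYN1 and SYN2 did not overlap. SYN1 was below SYN2 in all 3 libraries, with a ratio of 0.425 and a counting interval of 0.227 to 0.751. SV2A and SV2B, vesicle glycoproteins, had 58 and 4 counts in all.

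The related vesicle membrane proteins found outside neurons had much higher levels. SYNGR2, a synaptogyrin of many cell types, was at 215 ± 2.67 TPM and SYPL1, a synaptophysin-like protein, at 163 ± 4.95 TPM (SD, n = 3). SYNGR1, the form enriched in neurons, was at 10.0 ± 0.262 TPM. SYNGR3, another synaptogyrin, was at 3.69 ± 0.571 TPM, while SYNPR had 0, 2 and 0 counts. Over full exon lengths no vesicular transporter of a neurotransmitter reached 1 TPM. The highest, SLC18A2, was at 0.505 TPM, but it shares 56.4% of its exonic sequence with other genes, and with lengths from unshared bases its mean was 1.10 TPM. SLC18A1, SLC17A6, SLC17A8 and SLC32A1, which load monoamines, glutamate or GABA, had 0 counts in all libraries, as did SYNGR4. Over the 14 genes of this list, 4 were at 1 TPM or more in all libraries.

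**Figure D2:**
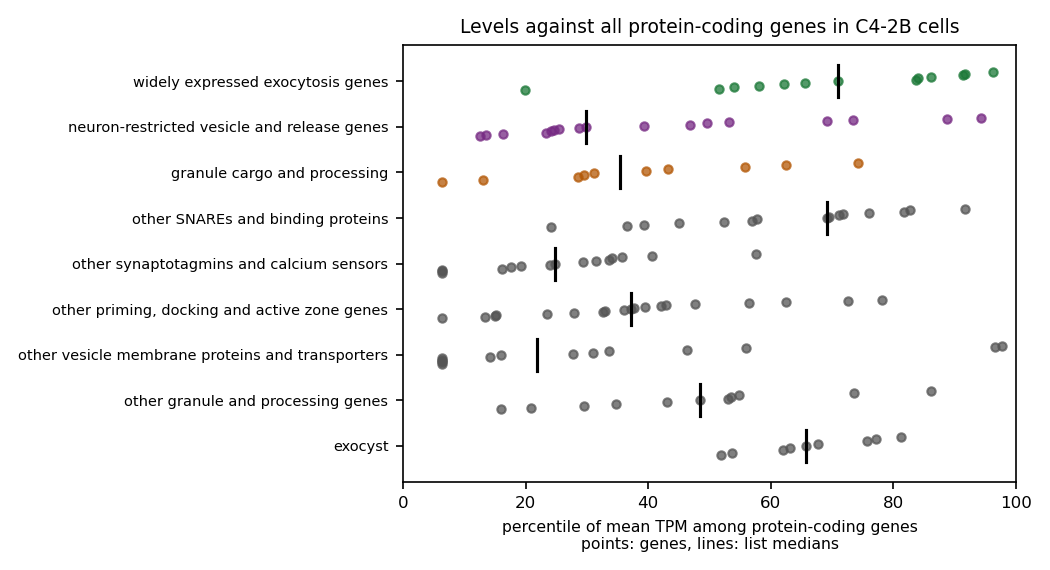
Percentile of each gene's mean TPM among all protein-coding genes, on a linear axis from 0 to 100, for the 3 classes (coloured) and 6 lists of other genes of the pathway (grey), with a black line at each list's median. The median lies at percentile 71.0 for the widely expressed class, 29.9 for the neuron-restricted class and 35.4 for granule cargo, and 2 vesicle membrane genes, SYNGR2 and SYPL1, lie above percentile 95 in a list whose median is 21.8.

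SYT4 and RAB3A, of the neuron-restricted class, were the second and the fifth most abundant of the 40 genes. SYT4, synaptotagmin 4, a vesicle and granule protein that binds SNAREs and lacks the usual calcium binding of this family (ENSG00000132872, chromosome 18, 43267878 to 43277650, minus strand), had 6980, 7926 and 7286 counts. Its level was 109, 112 and 111 TPM, with a mean of 111 ± 1.91 (SD, n = 3), at percentile 94.3 of protein-coding genes. None of its exon bases lies under another gene. RAB3A, the main Rab GTPase of synaptic vesicles (ENSG00000105649, chromosome 19, 18196784 to 18204074, minus strand), was at 61.9, 68.9 and 61.6 TPM, with a mean of 64.1 ± 4.15. Of its exon bases, 9.08% lie under MPV17L2 on the opposite strand, and reads there were counted for neither gene. SYT4 made up 45.5% ± 0.722 of the summed TPM of the 17 neuron-restricted genes.

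SYT4 and SYT7 held most of the synaptotagmin RNA. Over 17 synaptotagmin genes, which summed to 160 ± 0.608 TPM, SYT4 took 69.0% ± 1.45 and SYT7 28.5% ± 1.30 (SD, n = 3). SYT7, a slow calcium sensor of granule and lysosome fusion (chromosome 11, 61515313 to 61581148), was at 48.3, 43.9 and 45.0 TPM. SYT1, the fast calcium sensor of synaptic vesicles, had 7, 4 and 12 counts, or 0.0794 TPM, and SYT7 was 583 times higher with a counting interval of 388 to 920. SYT11, the closest paralogue of SYT4, had 0, 6 and 4 counts, or 0.0412 TPM, and it was the only gene of the widely expressed class under 1 TPM. The ratio of SYT11 to SYT4 was 0.000382 with a counting interval of 0.000183 to 0.000702. Of 15 other synaptotagmins and calcium sensors, 2 reached 1 TPM in all libraries, DOC2A at 11.2 ± 0.757 TPM and SYT17 at 1.64 ± 0.239 TPM. SYT2 followed at 0.727 TPM, and SYT8, SYT10 and SYT16 had 0 counts.

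The SNARE proteins of the plasma membrane were mainly the widely expressed forms. SNAP23 (chromosome 15, 42491233 to 42545356) was at 18.8, 18.2 and 17.8 TPM, with a mean of 18.3 ± 0.510 (SD, n = 3). Of the SNAP23 exon bases, 18.1% lie under other genes, and with lengths from unshared bases its level was 21.2 TPM. SNAP25, its neuronal paralogue, had 0, 3 and 0 counts. SNAP23 was 923 times higher per length, and with so few counts of SNAP25 the interval ran from 316 to 4477. SNAP23 was not the highest of its family. SNAP29 held 50.3% ± 0.800, SNAP47 27.3% ± 0.523 and SNAP23 22.4% ± 0.609 of the family's TPM.

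Among the syntaxins, STX3, which serves apical and granule fusion in epithelia (chromosome 11, 59713456 to 59805882), was at 47.4, 46.8 and 46.4 TPM. STX4, a widely expressed syntaxin of the plasma membrane, was at 12.0, 10.6 and 12.2 TPM. STX1A, a neuronal syntaxin (chromosome 7, 73699206 to 73719672), was at 5.90, 5.34 and 5.57 TPM, below both in every library. Of the summed TPM of STX1A, STX2, STX3 and STX4, STX3 held 54.5% ± 0.681, STX2 25.4%, STX4 13.5% and STX1A 6.53%. For STX1A, 17.9% of the exon bases lie under BUD23 on the opposite strand, and with lengths from unshared bases its level was 6.51 TPM.

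The vesicle SNAREs were shared by several forms. VAMP8, the SNARE of exocrine granules and endosomes (ENSG00000118640, chromosome 2, 85561562 to 85582031, plus strand), was at 87.6, 81.2 and 70.3 TPM, with a mean of 79.7 ± 8.74 (SD, n = 3). VAMP3, cellubrevin (chromosome 1, 7771269 to 7781432), was at 75.3, 78.0 and 78.0 TPM. VAMP2, the main vesicle SNARE of neurons, which many other cells also use, was at 26.4, 26.5 and 27.5 TPM, and VAMP1 was at 7.59, 8.60 and 7.64 TPM. VAMP3 was 2.88 times higher than VAMP2, with a counting interval of 2.78 to 2.99, and 9.69 times higher than VAMP1. For VAMP2, 13.2% of the exon bases lie under another gene. With lengths from unshared bases its level was 29.4 TPM, and the log2 ratio of VAMP3 to VAMP2 fell from 1.53 to 1.32. VAMP7, VAMP8 and VAMP3 took 28.5%, 28.4% and 27.6% of the summed TPM of 7 VAMP genes, and these 3 shares overlapped over the libraries. VAMP2 took 9.58% ± 0.469. Of 15 other SNAREs and their binding proteins, 13 were at 1 TPM or more in all libraries, and NSF, the ATPase that takes spent SNARE complexes apart, was at 43.3 ± 3.12 TPM.

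**Figure D3:**
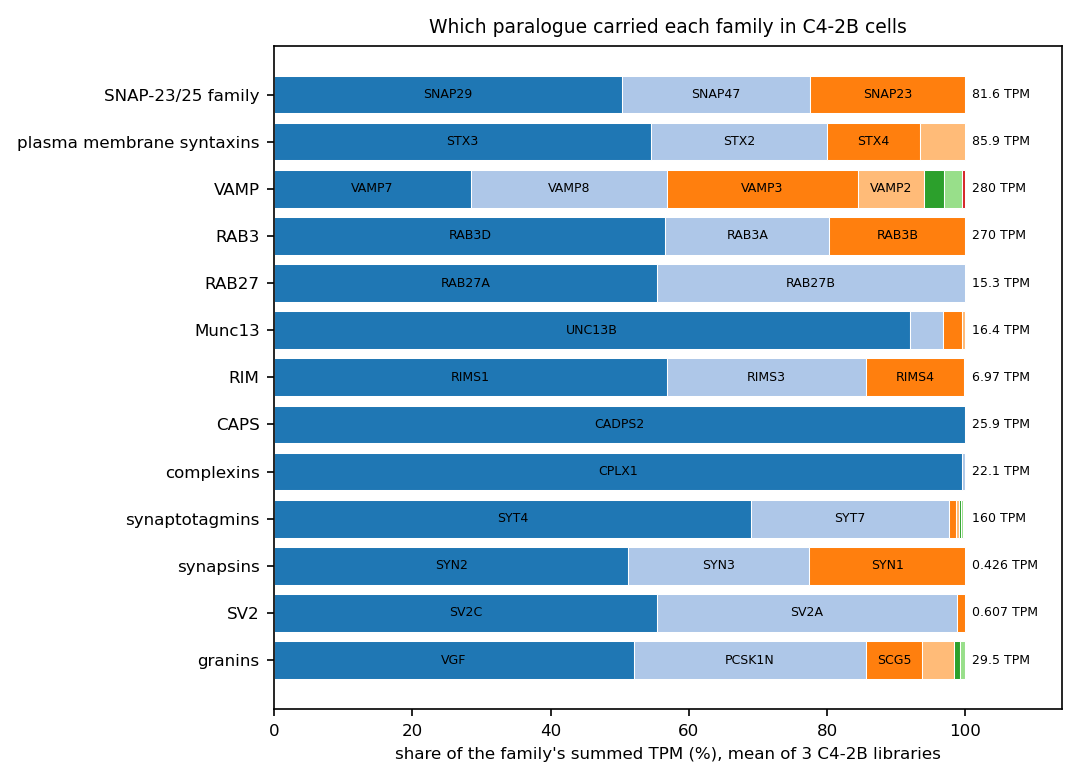
Mean share of each paralogue in the summed TPM of its family over the 3 C4-2B libraries, as stacked bars from 0 to 100%, with the family's summed TPM at the right and segments ordered from the largest, labelled where above 7%. UNC13B, CADPS2 and CPLX1 each took over 90% of their family, SYT4 and SYT7 together nearly all of the synaptotagmins, and SNAP25, CADPS, SYT1 and CHGB too little to be seen.

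Among the regulators of SNARE assembly, UNC13B was the highest Munc13 gene and CPLX1 the highest complexin. STXBP2, or Munc18-2, the partner of STX3 in epithelial and blood cells (chromosome 19, 7636881 to 7647873), was at 24.3, 23.4 and 24.2 TPM. Of the STXBP2 exon bases, 18.2% lie under other genes, and with lengths from unshared bases its level was 27.9 TPM. UNC13B, or Munc13-2, a priming factor found in neurons and epithelia (chromosome 9, 35161992 to 35405338), was at 15.1, 14.8 and 15.3 TPM and took 92.0% ± 0.391 of 4 Munc13 genes. It was 19.7 times higher than UNC13A, the main form of synapses. Of the same 4 genes, UNC13A took 4.68% and UNC13D 2.77%. CPLX1, a neuronal complexin that clamps and promotes fusion (ENSG00000168993, chromosome 4, 784957 to 826198, minus strand), was at 23.3, 22.0 and 20.7 TPM, with a mean of 22.0 ± 1.25 (SD, n = 3). CPLX2, found in neurons and granule-bearing cells, had 8, 12 and 12 counts, so CPLX1 was 220 times higher, with an interval of 156 to 323.

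Priming of dense-core granules relies on CAPS proteins. CADPS, the form of brain and endocrine cells, had 1, 0 and 0 counts over an exon length of 14638 bases. CADPS2, its paralogue, was at 25.9 ± 0.731 TPM (SD, n = 3) and made up 99.99% of the pair's TPM. RIMS1, a scaffold of the presynaptic active zone (chromosome 6, 71886703 to 72403143), was at 4.06, 4.05 and 3.75 TPM and took 56.8% ± 3.68 of 4 RIM genes. Of 19 other priming, docking and active zone genes, 8 were at 1 TPM or more in all libraries. The highest were SYTL1, a Rab27 effector, at 34.0 ± 1.08 TPM, CADPS2, and ERC1 at 15.3 ± 0.593 TPM, while the large active zone scaffolds BSN and PCLO were at 2.29 and 1.32 TPM. CPLX3 had 0 counts, but 99.7% of its exon bases lie under another gene, so its reads could not have been counted. All 9 genes for subunits of the exocyst, the tethering complex of constitutive secretion, were expressed. Over full exon lengths the highest were EXOC5 at 40.2 TPM, EXOC4 at 32.5 TPM and EXOC7 at 30.3 TPM, and the lowest was EXOC6B at 7.08 TPM. For EXOC7, 28.7% of the exon bases lie under other genes. With lengths from unshared bases EXOC7 was the highest of the 3 at 40.5 TPM, beside 38.6 for EXOC5 and 30.9 for EXOC4.

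The 5 Rab GTPases of secretory vesicles among the 40 genes were all expressed. RAB3D, the form of exocrine granules (ENSG00000105514, chromosome 19, 11322046 to 11346270, minus strand), was the highest of the 40 genes at 151, 156 and 152 TPM, with a mean of 153 ± 2.64 (SD, n = 3). RAB3B (chromosome 1, 51907956 to 51990764) was at 52.0, 53.3 and 54.2 TPM. RAB3A, at 64.1 TPM, was above RAB3B and below RAB3D in all 3 libraries. The ratio of RAB3D to RAB3A was 2.38 with a counting interval of 2.31 to 2.45, and that of RAB3B to RAB3A 0.827 with an interval of 0.804 to 0.852. RAB3B has 12844 exon bases and RAB3A 1818, so by CPM, which does not divide by length, RAB3B was the higher by 2.55 on the log2 scale. RAB3C, the remaining neuronal form, had 2 counts in each library. RAB27A and RAB27B, which recruit granules to the plasma membrane, were at 8.48 ± 0.173 and 6.82 ± 0.170 TPM, and RAB27A was higher in every library by TPM but not by CPM, where the log2 ratio was -0.0931. For RAB3D, 24.9% of the exon bases lie under other genes, and with lengths from unshared bases its level was 194 TPM.

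Taken pair by pair, the widely expressed paralogue was higher in all 3 libraries in 9 of 11 comparisons. The exceptions were RAB3B against RAB3A and SYT11 against SYT4. By CPM the count was also 9, but RAB3B was then above RAB3A, and VAMP8 was no longer above VAMP2 in all 3 libraries. The ratios of the other 9 ran from 2.07 for STX4 over STX1A to 923 for SNAP23 over SNAP25. The ratios with the smallest counts, for SNAP25, SYT1 and SYT11, had the widest intervals, and all the intervals cover counting error alone and are too narrow because the mates of a read pair were counted separately.

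**Figure D4:**
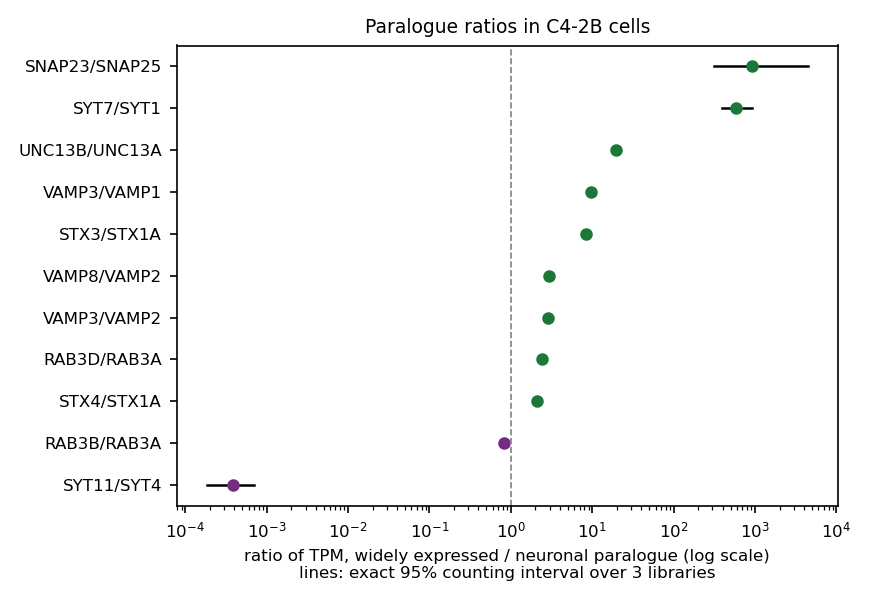
Ratio of the TPM of a widely expressed paralogue to that of its neuronal paralogue, on a log axis, for 11 pairs, with horizontal lines for the exact 95% counting interval over the 3 libraries and a dashed line at a ratio of 1. In 9 pairs the ratio lies to the right of 1, from 2.07 to 923, and in 2 it lies to the left, RAB3B/RAB3A at 0.827 and SYT11/SYT4 at 0.000382.

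The libraries were also compared with each other for every gene, as a measure of how far levels varied without a change of condition. A chi-square test of the 3 counts against library size, with its statistic divided by 2 because mates were counted separately, could be made for the 30 members that had 30 counts or more. None of the 30 passed a Benjamini-Hochberg adjusted p of 0.05, beside 0.792% of the 22229 genes tested, and 4 had an unadjusted p under 0.05, beside 11.3% of genes. These 4 were VAMP8, SYT7, RAB3A and CPE, and without the division by 2 each of them passed, beside 17.3% of genes. VAMP8 varied most among them, with an adjusted p of 0.0581 in this chi-square test over all genes, and with replicates 1 and 3 alone it passed at 0.0197, beside 1.11% of genes. The coefficient of variation of the 25 expressed members ran from 1.05% for STX3 to 17.6% for CHGA, with a median of 4.49%, and it was above 10% for VAMP8, SCG5 and CHGA.

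Many genes of neuroendocrine granules and synapses are known targets of REST, a repressor that binds a long element called RE1, and of CREB, an activator that binds the cAMP response element, or CRE. REST itself, on chromosome 4, was at 42.3, 44.6 and 45.2 TPM, with a mean of 44.0 ± 1.58 (SD, n = 3). Promoters of 300 bases, 250 before and 50 after each RefSeq start on GRCh38, were found for 34 of the 40 genes, giving 52 promoters. None was found for CHGB, SCG2, SNAP25, SYN3, CPLX1 and SYT7. Both strands were searched for the CRE as TGACGTCA, for the left part of RE1 as TTCAGCACC and for its right part as GGACAGC.

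The CRE was found in 4 of the 52 promoters, or 7.69%, and in 1.85% of 35116 promoters in all. It lay 54 bases before the start of CHGA, 77 before a start of PCSK1, 79 before VGF and 159 before SYN1. These stretches are shown because they place the same 8 letters in genes whose RNA ranged from 0.0932 TPM for SYN1 to 15.3 TPM for VGF. Capitals mark the CRE, and each is written 5′ to 3′ on the strand of its gene.
CHGA, chr14:92923085-92923114, plus strand: ggcggcaccgcTGACGTCAtttccggggtc
PCSK1, chr5:96433292-96433351, minus strand: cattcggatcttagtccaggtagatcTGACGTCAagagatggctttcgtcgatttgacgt
VGF, chr7:101165615-101165674, minus strand: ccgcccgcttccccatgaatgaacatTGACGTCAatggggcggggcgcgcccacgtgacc
SYN1, chrX:47619983-47620042, minus strand: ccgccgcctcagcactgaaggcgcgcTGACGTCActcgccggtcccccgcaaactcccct
In the deposited gene models the CHGA stretch lies inside the gene, which begins at base 92923080. The PCSK1 stretch lies inside an intron, and the VGF and SYN1 stretches lie before the gene. Of the 4 genes with a CRE, VGF was at 15.3 TPM, CHGA at 1.38 TPM, PCSK1 at 0.339 TPM and SYN1 at 0.0932 TPM. Whether the CRE bears on these levels was not tested.

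The left part of RE1 was found in the promoters of SYN1 and SCG3 and in 0.376% of all promoters, and the right part in 4 member promoters, those of PCSK1, PCSK2, SCG3 and VGF, beside 6.03% of all. Of these 4 genes, VGF was at 15.3 TPM, PCSK1 at 0.339 TPM, SCG3 at 0.248 TPM and PCSK2 at 0 counts. After these matches were seen, the left part was also searched for together with GGACAG after 2 further bases. That joined form was held by 5 of the 35116 promoters, and SYN1 was the only member among them. The form matches the SYN1 stretch that had already been seen. The SYN1 match was therefore fixed in advance, and its rarity is no result about the members. In SCG3 the left and right parts lay 8 bases apart. Both stretches are shown because only the promoters of SYN1 and SCG3 among the 52 held the left part. Capitals mark the left part and the right part. In SYN1 the marked right part is GGACAG, without its last base, so SYN1 is not among the 4 promoters with the whole right part. SYN1 and SCG3 were at 0.0932 and 0.248 TPM.
SYN1, chrX:47620048-47620107, minus strand: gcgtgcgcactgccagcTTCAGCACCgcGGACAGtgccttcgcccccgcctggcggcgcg
SCG3, chr15:51681511-51681534, plus strand: TTCAGCACCcacagggcGGACAGC
The SYN1 element begins 233 bases before the start, and the one in SCG3 begins 8 bases after it, inside an exon of the deposited gene model. A match is a description of letters in these windows, and binding of REST or CREB was not tested.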

How the data were processed

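Total RNA of C4-2B cells was depleted of ribosomal RNA, made into stranded libraries and sequenced in pairs on an Illumina instrument. Per the submitters' processing notes the authors aligned reads with STAR 2.7.0f, and the deposited tables hold counts without normalization, made by featureCounts 1.6.3 over genes of Ensembl release 90 on GRCh38. The recorded command set neither strand nor pairs, so reads of either strand were counted and mates were counted separately. By the tool's defaults, reads over several genes or aligned to several places were not counted. The authors' other value per gene, exon length, equalled the union of exons in all 58302 genes.

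Groups came from the sample titles. Symbols were matched by Ensembl identifier for 57532 genes, and gene types came from GENCODE release 44. TPM was computed from counts and exon length over all genes of a library, with means and SDs over 3 libraries. Genes were named as all 40 members, their paralogues in a pair or family, and the 3 highest and the genes at 0 counts in each list of 83 other genes. A few genes that had been planned are left out, so the pathway, marker, pair and family lists are shorter than first written. PAM, PTPRN, PTPRN2, BSN, PCLO, SYNPR, SYNGR3, SLC18A2 and EXOC6B fall outside that rule and were chosen after their values were seen. The members, classes and lists were chosen with earlier results of these data known. A gene counted as expressed at 1 TPM or more in all libraries. Libraries were compared gene by gene with a chi-square test of fit to TMM-scaled library sizes (edgeR 4.0.16), 2 degrees of freedom, at least 30 counts and Benjamini-Hochberg adjustment over all genes. This test compares libraries, not conditions. Counts were also simulated by Poisson draws around the pooled C4-2B levels, with both mates counted. On these the chi-square test made 0 calls among 22281 unchanged genes, and it recovered 73% of 200 genes doubled in 1 library. The simulation held counting error alone. Of its unchanged genes, 4.91% had an unadjusted chi-square p under 0.05, beside 11.3% of genes in the data. It therefore cannot show how the test behaves where libraries vary by more than counting error. Ratios carry exact 95% intervals from the summed counts, and a gene at 0 was set to 3 counts over the libraries. Other denominators, lengths, pseudocounts, scalings (DESeq2 1.42.0 size factors among them) and each replicate left out were tried. Promoters came from RefSeq on GRCh38. A comparison of protein sequences that had been planned was not made. Depth was 44992971 to 49569026 counts per library. Intervals and limits cover counting error only.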

Additional observations from a re-analysis of the deposited data

How the results depend on the processing

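The count of 25 expressed genes and the count of 9 paralogue pairs did not change under the alternatives run, except that a threshold of 2 TPM gave 23 genes, although by CPM 1 of the 9 pairs was a different pair. The levels in TPM themselves depended on the denominator. Without the 10 most abundant and the mitochondrial genes in it, 30 of the 40 levels moved by at least their SD over libraries. SYT4 then rose from 111 to 160 TPM, RAB3D from 153 to 221, CHGA from 1.38 to 1.99 and SYP from 1.31 to 1.89. With protein-coding genes alone in it, 30 levels also moved, and with lengths from exon bases under no other gene 12 did. The differences of class medians kept their direction throughout. For the neuron-restricted and the granule class, in this order, they were 4.67 and 4.08 without the 10 most abundant and the mitochondrial genes in the TPM denominator, 4.63 and 4.06 with protein-coding genes alone in it, 4.51 and 4.05 with lengths from exon bases under no other gene, 5.01 and 4.62 by CPM, 5.99 and 4.92 with a pseudocount of 0.1, 2.66 and 2.95 with means in place of medians, and 4.85 and 4.69 without the genes of open class. With a replicate left out they ran from 4.25 to 4.31 and from 3.79 to 3.85. In the comparison of libraries, 4 members passed when the chi-square was not divided and 0 to 1 when a replicate was left out, the 1 being VAMP8 without replicate 2. By DESeq2 size factors, by total counts and with other count minimums it was 0. Of the 39 neighbouring pairs, 20 to 24 were separate with a replicate left out. By CPM, 4 log2 ratios changed sign, VAMP8 over VAMP2 to -0.16, RAB3B over RAB3A to 2.55, RAB27A over RAB27B to -0.0931 and RAB3B over RAB3D to 0.0149, because CPM does not divide by length. CHGB, SNAP25 and CADPS rested on 1 library each and were at 0 without replicate 3, 2 and 1 in turn, and SYT11 was at 0.0258 TPM without replicate 2. No paired analysis was possible because the samples analysed here belong to 1 group. Depth limits the 15 genes under 1 TPM, whose neighbouring levels overlapped.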

Other observations

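The promoters of these genes were also compared by their CpG content, which no comparison above used. The median number of CpG dinucleotides in 300 bases was 14 over all 35116 promoters, 22.5 over promoters of the granule genes, 20 over those of the neuron-restricted genes and 17.5 over those of the widely expressed genes. No test was made, since the 52 member promoters include several of the same gene.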
